A study of Mus musculus with 14 samples.

Results

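Total testis RNA of Adad2 mutant mice was compared with that of wild-type controls at 21 days of age, in the 7 input libraries (4 mutant and 3 wild type) of a series of 14 libraries. Input is RNA of the whole testis lysate taken before ribosomes were pulled down, so it holds RNA of germ cells and of every somatic cell of the testis. All animals were C57BL/6 males heterozygous for Rpl22-HA (RiboTag, a tagged ribosomal protein) and for Stra8-iCre, a Cre driven by the promoter of Stra8 in differentiating germ cells. The controls were Adad2+/+ and the mutants were homozygous for the allele written M (Adad2M/M). Each library is 1 animal, and the animals carry the numbers 121, 140 and 17 (wild type) and 12, 69, 93 and 94 (mutant). Of 53337 annotated genes with an entry, 33260 had a count in at least 1 of the 7 libraries, and the 11912 with at least 10 counts in every one were kept for the comparison. Of those, 10723 were protein coding and 287 were lincRNAs.

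ADAD2 is a testis protein with an adenosine deaminase domain and an RNA-binding domain, found in granules of meiotic germ cells, and Adad2 mutants lose germ cells after meiosis. Spermatogonia enter meiosis under retinoic acid and STRA8. In pachytene, spermatocytes silence the X and Y chromosomes in the XY body and switch on a broad set of genes whose products are needed only later, for the acrosome, the flagellum and the sperm surface. At 21 days the first wave of germ cells has reached late meiosis and the earliest round spermatids, beside Sertoli cells, Leydig cells, peritubular cells, macrophages and vessels. In RNA of a whole tissue, fewer cells of a type and less RNA per cell cannot be told apart.

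Libraries held 22987974 to 30330450 expected counts, and spike-in and mitochondrial shares overlapped between genotypes. Mutants 12 and 69 had 16033 and 15446 annotated genes above 0, against 21348 and 27021 in mutants 93 and 94 and 25332 to 27816 in wild type. The 10 most abundant genes took 15.5 ± 1.58% (SD, n = 3) of gene counts in wild type and 20.7 ± 1.32% (SD, n = 4) in mutants, without overlap (two-sided exact permutation p = 0.0286, the smallest that 35 splits allow). The abundant 7SL RNA genes Rn7s1 and Rn7s2, whose deposited counts are equal, took 8.80, 10.1 and 11.6% of the counts kept in wild type and 15.8, 15.2, 15.6 and 13.9% in mutants 12, 69, 93 and 94. The count minimum did not act alike on the genotypes: 5724 genes reached it in all 3 wild-type but not in all 4 mutant libraries, of which 4219 reached it in mutants 93 and 94, and 117 did the reverse. Genes near the minimum were therefore kept only where the mutants held them, and their differences are read with that limit.

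Adad2 itself (ENSMUSG00000024266.8, chromosome 8, 119612747 to 119616924, GRCm38) had 30.5, 32.5 and 35.8 CPM in wild type and 7.01, 6.75, 13.5 and 13.1 in mutants. CPM is the count scaled to library size with TMM factors, a level that is not corrected for gene length, and values are given here and below in the order 121, 140 and 17 for wild type and 12, 69, 93 and 94 for mutants. Every mutant lay below every wild-type animal, and reads of the gene were present in each mutant testis. All counts of the gene fell on 1 annotated transcript. Its log2 fold change, mutant over wild type, was -1.71 (standard error 0.32), with an adjusted p of 0.137 from the quasi-likelihood test of edgeR, which is above the threshold of 0.05. In a second fit that left out mutants 12 and 69, the libraries with the fewest genes, it was -1.33 with an adjusted p of 0.00338.

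The test over all 7 animals called 1 gene higher and 1 gene lower in mutants, which is 0.00839% of 11912 genes in each direction. An unadjusted p under 0.05 was reached by 858 genes higher and 868 lower. Tools that estimate the spread otherwise called far more, 175 and 202 with DESeq2 and 740 and 1128 with limma voom and weights per library. The uncharacterized protein-coding gene 1700006A11Rik (ENSMUSG00000027973.11, chromosome 3, 124400989 to 124426040) had wild-type levels of 127, 132 and 125 CPM and mutant levels of 365, 385, 323 and 300.1. Its lowest mutant value lay far above its highest wild-type value, and the gene rose by 1.43 on the log2 scale (standard error 0.12, adjusted p = 0.00888). RSEM split its reads between the transcripts 1700006A11Rik-201, which codes for protein, and 1700006A11Rik-202, annotated as a target of nonsense-mediated decay. Transcript 202 had 1862, 1782 and 1865 expected counts in wild type and 5739.9, 4026, 3336 and 5089.9 in mutants 12, 69, 93 and 94. Transcript 201 had 783, 1095 and 680.4 in wild type and 1508, 4130.4, 2622 and 2460.1 in the mutants. Both transcripts were thus higher in all 4 mutants than in any wild-type animal, and their proportions varied between animals of 1 genotype.

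Med16 (ENSMUSG00000013833.15, chromosome 10, 79894708 to 79908923) encodes a subunit of Mediator, the complex that joins transcription factors to RNA polymerase II. It had 105, 127 and 122 CPM in the wild-type animals and 45.7, 48.9, 46.0 and 46.9 in the mutants. The 4 mutants stood close together and well below the lowest wild-type animal, and the gene fell by 1.33 on the log2 scale (standard error 0.14, adjusted p = 0.0186). Its reads were divided mainly between 2 coding transcripts, Med16-201 and Med16-204, in proportions that differed between animals: Med16-201 took 65.7, 40.4 and 45.6% of the gene's counts in wild type and 0.0, 71.5, 34.1 and 55.4% in mutants 12, 69, 93 and 94. Without any 1 of wild-type 121, 140 or 17 or of mutants 12 or 93 neither gene passed, without mutant 94 only 1700006A11Rik did, and without mutant 69 both did.

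**Figure D1:**
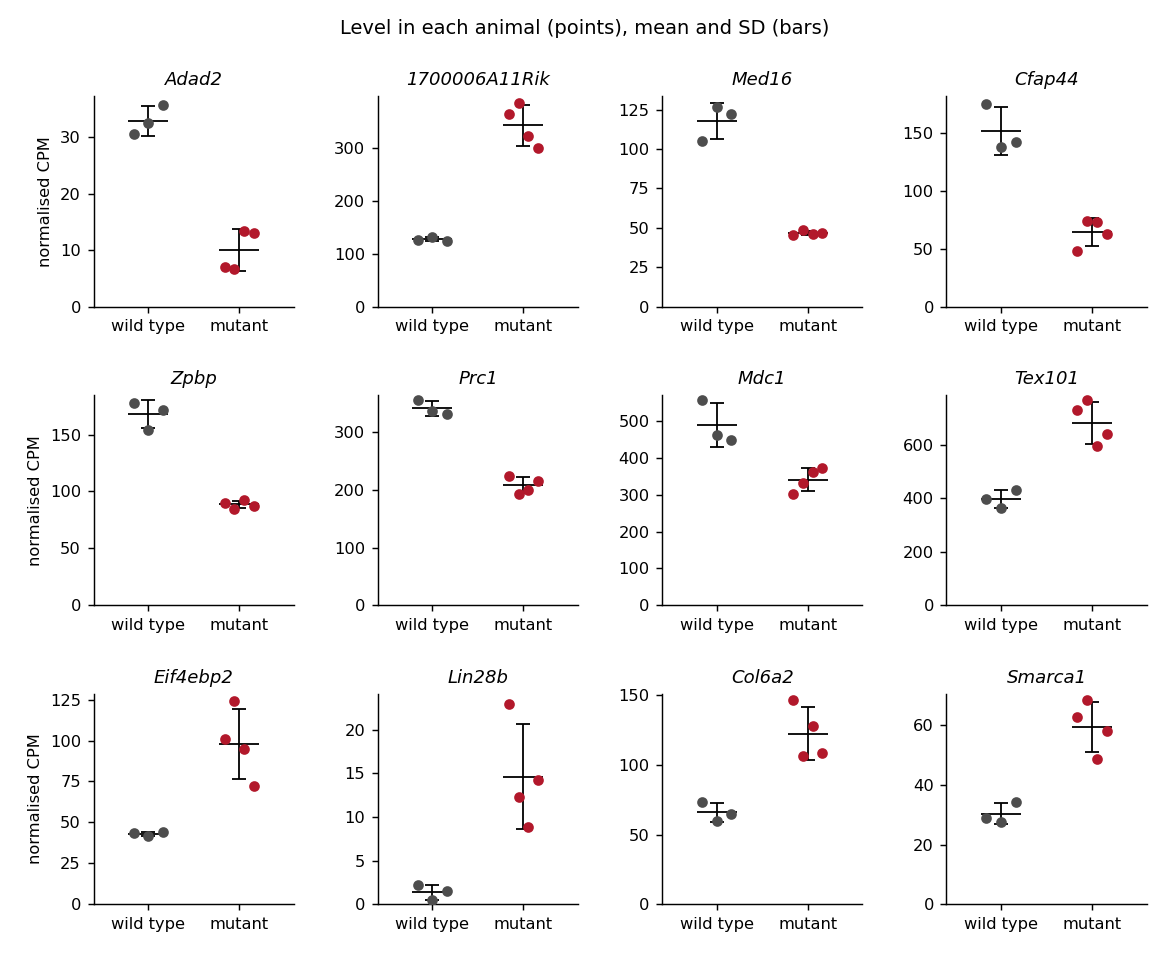
Normalised CPM of 12 genes in each animal. Grey points are the 3 wild-type and red points the 4 mutant animals, and bars give the mean and SD; all axes start at 0. In each of the 12 genes the mutants lie wholly above or wholly below the wild-type animals. Most were named for a small p in these same data, so this lack of overlap was largely built in.

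Because the main test called few genes, each group is also described without a test. The measure is the number of members whose 4 mutant values lay all above or all below the 3 wild-type values. Over all genes kept, 983 (8.25%) were higher in this sense and 1030 (8.65%) lower, and the median of the log2 fold change was 0.02. In the fit on wild type and mutants 93 and 94 alone, 890 genes (7.47%) were called higher and 1510 (12.7%) lower. Differences depended on level. Among 2056 genes with a mean of at least 100 CPM the median was -0.10, with 146 (7.10%) higher and 326 (15.9%) lower without overlap. Among 2657 genes under 10 CPM it was 0.23, with 196 (7.38%) higher and 120 (4.52%) lower, so a positive median of a group of scarce genes is set against that value. Changes of at least 2-fold were seen in 362 genes higher, 150 of them without overlap, and in 202 lower, 157 of them without overlap.

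**Figure D2:**
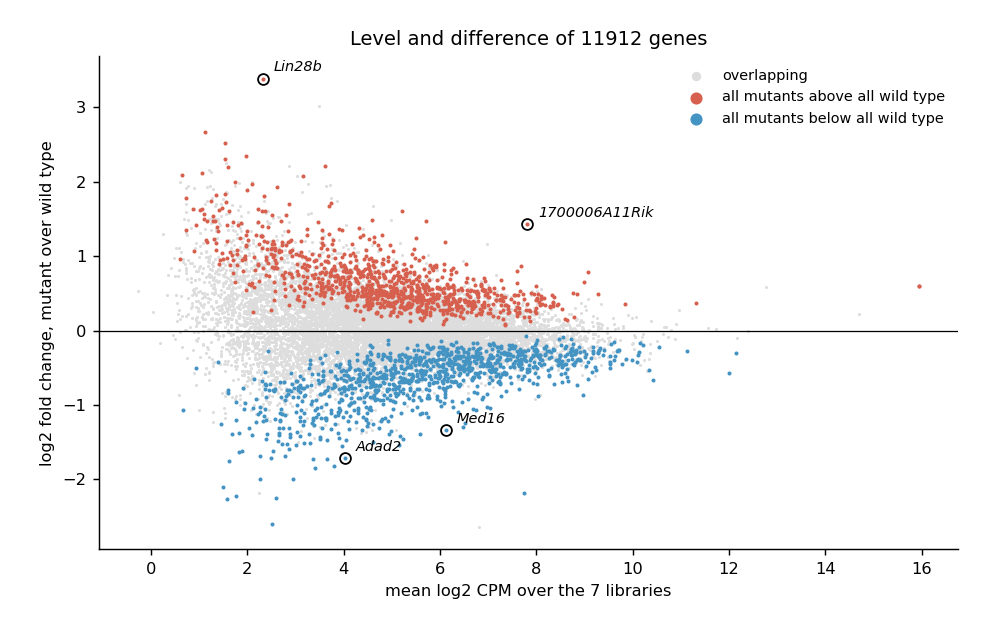
Mean level over the 7 libraries (log2 CPM) against the log2 fold change of 11912 genes, mutant over wild type. Red and blue points are the 983 and 1030 genes whose genotypes did not overlap. The cloud bends upwards at low levels. There the count minimum kept only genes that all 7 libraries held, and the cause of the bend was not tested.

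The 12 protein-coding genes with the smallest p in each direction were led by the 2 called genes, and the other 11 on each side had an adjusted p between 0.0762 and 0.137. On the lower side Zpbp (chromosome 11, 11279626 to 11462408), a gene for a zona pellucida binding protein of the acrosome, had 177, 154 and 172 CPM in wild type and 90.1, 84.6, 92.5 and 87.2 in mutants. Bcap29, an endoplasmic reticulum membrane protein, had wild-type levels of 247, 204 and 236 CPM and mutant levels of 131, 123, 142 and 125. Both had tight mutant values, and neither overlapped the wild-type range. Adcy10, the soluble adenylyl cyclase that raises cAMP in sperm, had 216, 182 and 206 CPM in the wild-type animals and 129, 71.2, 103 and 89.1 in the mutants. The hyaluronidase family gene Hyal6 had 176, 149.9 and 145 CPM in wild type and 87.9, 57.1, 87.3 and 71.7 in mutants, and the dynein-2 subunit gene Wdr34, which serves retrograde transport in cilia, had wild-type levels of 57.0, 52.0 and 62.6 CPM and mutant levels of 28.5, 28.8, 21.2 and 27.4. In these 3 no mutant reached the wild-type range. The zinc finger gene Zfp993 had a log2 fold change of -2.25, Zcchc2 of -0.89 and 4921524L21Rik of -1.40, and all 3 were lower in every mutant.

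On the higher side stood genes of several kinds. Tex101, a surface protein of germ cells, had 398, 364 and 431 CPM in the wild-type animals and 729.5, 767, 596 and 639.8 in the mutants (adjusted p = 0.133). Golga2, a matrix protein of the cis-Golgi, had 130.1, 157 and 149 CPM in wild type and 249, 312, 248 and 257 in mutants. Eif4ebp2 (chromosome 10, 61428491 to 61452661) encodes a protein that binds the cap-binding factor eIF4E and holds back initiation, and it had wild-type levels of 43.4, 41.7 and 44.0 CPM and mutant levels of 101, 124, 94.6 and 72.2. The wild-type values of Eif4ebp2 were nearly equal, and the lowest mutant lay well above them. Lin28b (chromosome 10, 45376620 to 45486395), which blocks maturation of let-7 miRNAs, had 2.21, 0.505 and 1.47 CPM in the wild-type animals and 23.0, 12.3, 8.85 and 14.2 in the mutants. Its counts were 46, 11 and 30 in wild type and 456, 261, 163 and 358 in mutants, so the wild-type level rests on few reads. Igfbp4, a binding protein of insulin-like growth factors, had a log2 fold change of 1.10, the prion-like gene Prnd of 1.26 and the patched-domain gene Ptchd3 of 0.64. The uncharacterized genes 6430548M08Rik and 4930486L24Rik had 0.99 and 1.68, and every mutant exceeded every wild-type animal in these 5.

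Genes for sperm structures lay mostly below 0. Gene groups below share some members, so their counts are not independent. Of 29 markers of round spermatids that were kept, 27 lay below 0 with a median of -0.84, and 12 were lower and 0 higher without overlap. A further 16 of the 52 markers listed reached the count minimum in all wild-type but not in all mutant libraries. The poly(A) polymerase gene Papolb had 403, 347 and 376 CPM in wild type and 262, 212, 189.7 and 153 in mutants, and the chaperone gene Dnajb3 had wild-type levels of 202, 182 and 201 CPM and mutant levels of 140.1, 125, 106 and 110.1. Animal 69 differed least: its mean over the spermatid markers lay 0.30 below the wild-type mean on the log2 scale, beside 0.95, 0.96 and 1.23 in mutants 12, 93 and 94, and wild-type 140 lay 0.30 below as well. In the fit on mutants 93 and 94, 26 of the 29 fell and none rose.

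**Figure D3:**
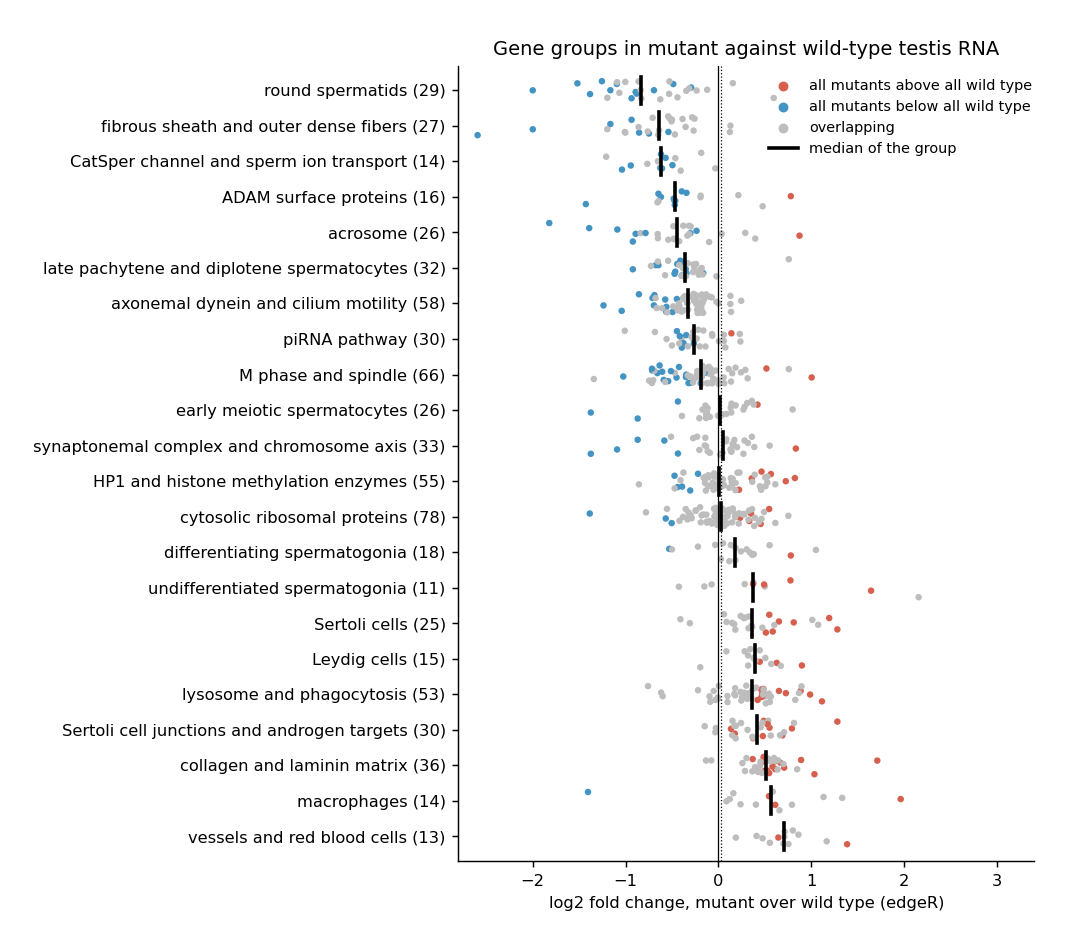
Log2 fold change (mutant over wild type) of the members of 22 gene groups, with the number kept in brackets. Red and blue points are genes whose genotypes did not overlap, black bars are medians, and the dotted line is the median of all 11912 genes at 0.02; groups of late germ cells lie to the left and groups of somatic cells to the right.

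The fibrous sheath and outer dense fibers stiffen the sperm tail. Of 27 such genes kept, 25 lay below 0 (median -0.64) and 7 were lower without overlap, with none higher. Fscb, a protein of the fibrous sheath, had 18.5, 11.2 and 22.3 CPM in the wild-type animals and 5.44, 2.69, 1.14 and 2.19 in the mutants. Akap3, the scaffold that anchors protein kinase A there, had 96.8, 68.3 and 91.9 CPM in wild type and 40.4, 44.0, 32.7 and 35.9 in mutants. The sperm glycolytic enzyme gene Gapdhs had wild-type levels of 23.0, 11.2 and 21.8 CPM and mutant levels of 1.46, 7.41, 4.34 and 5.41, and mutant 12 held 29 counts of it. Every mutant lay below every wild-type animal in these 3 genes, and in the fit on mutants 93 and 94, 21 of the 27 fell.

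CatSper is the calcium channel of the sperm tail. All 14 genes of CatSper and of sperm ion transport that were kept lay below 0 (median -0.61), 7 of them without overlap, and 10 more reached the count minimum in all wild-type but not in all mutant libraries. The channel subunit gene Catsperd had 103, 86.5 and 89.7 CPM in the wild-type animals and 57.6, 40.5, 53.7 and 41.8 in the mutants. Slc26a8, an anion transporter of sperm, had 201, 149.9 and 155 CPM in wild type and 113, 128, 108 and 88.3 in mutants. Adcy10, given above, is also counted here. Of 16 genes of ADAM surface proteins and their partners, which have roles in sperm migration and fusion, 13 lay below 0 (median -0.47), and 9 were lower and 1 higher without overlap. Adam24 had wild-type levels of 18.6, 15.9 and 25.7 CPM and mutant levels of 8.32, 6.75, 8.14 and 6.68 and Adam18 had 148, 141 and 139.8 CPM in the wild-type animals and 100.1, 101, 96.4 and 75.6 in the mutants. Tex101, whose protein acts with ADAM3 on the sperm surface, was the one member of that list that was higher in every mutant.

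Among 26 acrosome genes 22 lay below 0 (median -0.45), and 8 were lower and 1 (Golga2) higher without overlap. Zan, zonadhesin of the acrosomal matrix, had 36.1, 27.4 and 29.5 CPM in wild type and 12.8, 2.69, 9.01 and 10.5 in mutants. Spam1, the sperm hyaluronidase PH-20, had wild-type levels of 19.4, 16.3 and 15.9 CPM and mutant levels of 3.83, 9.72, 6.02 and 6.64. In the fit on mutants 93 and 94, 19 of the 26 fell and 1 rose. Over the 5 groups of spermatid markers, sperm tail, channel, surface and acrosome the medians stayed below 0 when any 1 animal was left out, and they lay nearer 0 in mutants 12 and 69 alone (-0.53, -0.31, -0.34, -0.31 and -0.16, in that order).

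Genes of the axoneme, the motile core of cilia and flagella, are in many cases transcribed already in spermatocytes. Of 58 kept, 54 lay below 0 (median -0.33, or -0.21 without wild-type 121), and 12 were lower and none higher without overlap. Cfap44 (ENSMUSG00000071550.14, chromosome 16, 44394796 to 44482428), a protein of the axoneme, had 175, 138 and 142 CPM in the wild-type animals and 47.9, 74.2, 72.6 and 62.5 in the mutants. Dnah8, a heavy chain of the outer dynein arm, had 5538, 5235 and 4572 CPM in wild type and 3067, 3295, 3950.0 and 3450.0 in mutants. In both genes every mutant lay below every wild-type animal. Dnah6, an inner arm heavy chain, had wild-type levels of 368, 305 and 311 CPM and mutant levels of 274, 170.4, 196 and 161, and the dynein assembly factor gene Ccdc103 had 23.2, 21.9 and 23.6 CPM in the wild-type animals and 10.2, 7.74, 13.02 and 13.5 in the mutants. At levels of at least 100 CPM the 37 axonemal genes had a median of -0.26, against -0.10 for all genes of that level. Without overlap 7 of these 37 (18.9%) were lower and 0 higher, beside 15.9% lower and 7.10% higher of all genes of that level. The share lower was thus near that of all abundant genes. Intraflagellar transport and basal body genes had a median of -0.11 over 36 genes (-0.05 without wild-type 121, -0.16 without mutant 12) with 7 lower and 0 higher. Of these Ttc26, a subunit of transport complex B, had 98.9, 97.6 and 97.05 CPM in wild type and 39.7, 41.4, 83.4 and 66.6 in mutants.

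Promoters are shown for 3 of these late genes and 2 M-phase genes that were lower in all mutants. Only promoters that held the RFX motif (late genes) or the NF-Y motif (M-phase genes) were shown, and genes without it were passed over. These motifs were taken because factors of the RFX family drive many cilium genes and NF-Y many genes of mitosis. The motifs searched, on both strands, were TGACGTCA (the cAMP response element, bound by CREM), CAGTTG (core of the MYB motif), GTTGCC (an arm of the RFX motif) and CCAAT (the NF-Y box), and CAGTTG and GTTGCC can overlap where CA precedes GTTGCC. Sequences are RefSeq promoters of GRCm38.p6, 250 bases before to 50 bases after the start, on the strand of the gene and 5′ to 3′. Capitals mark GTTGCC or its complement in the first 3, and TGACGTCA in Kif17. In Prc1 and Bub1b they mark CCAAT or its complement.
Cfap44, chr16:44394549-44394848, plus strand: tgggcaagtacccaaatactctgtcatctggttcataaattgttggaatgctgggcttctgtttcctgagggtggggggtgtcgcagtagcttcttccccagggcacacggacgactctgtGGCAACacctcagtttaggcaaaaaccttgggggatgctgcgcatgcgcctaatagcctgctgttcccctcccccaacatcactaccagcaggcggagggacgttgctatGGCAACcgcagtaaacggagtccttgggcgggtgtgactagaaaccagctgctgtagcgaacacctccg
Kif17, chr4:138262001-138262300, plus strand, a start inside the annotated gene: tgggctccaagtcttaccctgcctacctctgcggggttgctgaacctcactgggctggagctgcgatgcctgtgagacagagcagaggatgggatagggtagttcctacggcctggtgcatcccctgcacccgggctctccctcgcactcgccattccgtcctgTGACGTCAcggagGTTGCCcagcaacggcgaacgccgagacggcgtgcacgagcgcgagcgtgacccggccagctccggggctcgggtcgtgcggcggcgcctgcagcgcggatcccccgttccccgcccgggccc
Tekt2, chr4:126325639-126325938, minus strand: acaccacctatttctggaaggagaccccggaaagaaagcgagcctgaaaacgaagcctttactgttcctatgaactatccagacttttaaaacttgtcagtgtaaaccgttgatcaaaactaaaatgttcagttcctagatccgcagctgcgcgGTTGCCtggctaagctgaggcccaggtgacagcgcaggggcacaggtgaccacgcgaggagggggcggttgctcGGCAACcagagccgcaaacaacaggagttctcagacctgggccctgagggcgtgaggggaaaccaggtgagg
Prc1, chr7:80294201-80294500, plus strand: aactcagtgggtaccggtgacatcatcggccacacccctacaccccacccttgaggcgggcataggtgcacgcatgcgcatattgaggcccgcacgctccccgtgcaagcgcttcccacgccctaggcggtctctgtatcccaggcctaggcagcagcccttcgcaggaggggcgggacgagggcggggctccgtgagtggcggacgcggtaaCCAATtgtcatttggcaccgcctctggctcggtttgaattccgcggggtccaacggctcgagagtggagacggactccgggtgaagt
Bub1b, chr2:118597961-118598260, plus strand: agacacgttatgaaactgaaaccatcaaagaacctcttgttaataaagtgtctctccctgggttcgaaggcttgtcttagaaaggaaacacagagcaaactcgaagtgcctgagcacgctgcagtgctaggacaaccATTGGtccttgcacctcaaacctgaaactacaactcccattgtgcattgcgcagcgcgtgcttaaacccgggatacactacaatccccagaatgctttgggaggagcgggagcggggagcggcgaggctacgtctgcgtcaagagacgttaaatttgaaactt

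GTTGCC stood 129 and 19 bases before the start in Cfap44, 96 and 22 bases before it in Tekt2, and 73 bases before it in Kif17, where TGACGTCA began 86 bases before the start. Of 32851 RefSeq promoters 12.5% held GTTGCC, and over the 11328 promoters of genes kept 13.3% did. It was found in 19 of 52 promoters of axonemal genes (36.5%), 9 of 28 of late pachytene genes (32.1%) and 10 of 33 of spermatid genes (30.3%). Among genes that were lower without overlap it was found in 15.7%, and among those higher in 9.51%. CCAAT, which 38.9% of promoters of genes kept held, was found in 43 of 60 promoters of M-phase genes (71.7%), 37 bases before the start in Prc1 and 113 in Bub1b. TGACGTCA was found in 3.25% of promoters of genes kept, in 3.49% of those lower and in 2.85% of those higher, and CAGTTG in 11.1, 13.4 and 9.51%. These shares describe letters in a window and were not tested. The printed promoters were picked for holding GTTGCC or CCAAT, so their matches do not show how common these motifs are.

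Of 32 markers of late pachytene and diplotene spermatocytes kept, 31 lay below 0 with a median of -0.36, and 12 were lower and 0 higher without overlap. Insl6, a relaxin-like peptide, had wild-type levels of 62.7, 54.7 and 66.2 CPM and mutant levels of 37.4, 46.6, 37.7 and 31.8, and Pdha2, the retrogene that stands in for its silenced X-linked parent Pdha1, had 219.9, 216 and 235 CPM in the wild-type animals and 187, 172, 171 and 171 in the mutants. Zpbp, given above, belongs here too. Transcription regulators of late meiosis and spermatids had a median of -0.24 over 35 genes, with 5 lower and 1 higher. Kif17, a kinesin that carries the CREM coactivator ACT, had 31.9, 19.8 and 26.7 CPM in wild type and 8.37, 15.4, 8.74 and 7.63 in mutants, and Sox5 had wild-type levels of 16.9, 10.9 and 14.6 CPM and mutant levels of 4.29, 8.78, 4.40 and 6.84. Both were lower in every mutant, and both stood at low levels.

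Germ cells replace several glycolytic enzymes and ribosome-associated proteins by isoforms or retrogenes. Over 27 such genes the median was -0.47, with 6 lower and 3 higher without overlap. Pfkp, a phosphofructokinase, had 341, 264 and 239 CPM in the wild-type animals and 195, 196, 190.4 and 182 in the mutants, and Pabpc6, a testis poly(A)-binding protein, had 782, 697 and 687 CPM in wild type and 594, 514, 508 and 435 in mutants. Against that direction Tktl2, a transketolase-like retrogene, had wild-type levels of 255, 260.5 and 284 CPM and mutant levels of 418, 364, 339 and 368. RNA-binding regulators of translation in germ cells lay at -0.11 over 50 genes (9 lower and 2 higher, Adad2 among the lower), with medians from -0.20 without mutant 69 to -0.05 without mutant 12. Rbm44, a protein of intercellular bridges, had 161, 165 and 156 CPM in the wild-type animals and 83.5, 129.5, 126 and 108 in the mutants. Igf2bp1, which binds many mRNAs of early germ and embryonic cells, was higher in every mutant, at 16.4, 11.2 and 10.1 CPM in wild type and 40.2, 32.3, 27.5 and 20.8 in mutants.

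The mean of the M-phase genes and that of the piRNA genes lay below every wild-type animal in all 4 mutants. Of 66 M-phase and spindle genes 53 lay below 0 (median -0.18), and 18 were lower and 2 higher without overlap. Per animal, the mean of the group lay 0.35, 0.33, 0.25 and 0.24 below the wild-type mean in mutants 12, 69, 93 and 94 on the log2 scale, beside a wild-type SD of 0.06. Prc1 (ENSMUSG00000038943.16, chromosome 7, 80294450 to 80316259), a microtubule bundling protein of the spindle midzone, had wild-type levels of 356, 337 and 331 CPM and mutant levels of 224, 193, 199.5 and 216 (adjusted p = 0.131). Bub1b, the spindle checkpoint kinase BUBR1, had 119, 109.6 and 126 CPM in the wild-type animals and 77.5, 44.5, 40.1 and 70.3 in the mutants. Cenpf of the outer kinetochore had 425, 417 and 476 CPM in wild type and 367, 299.6, 321 and 298 in mutants, and Cit, a kinase of the cleavage furrow, had wild-type levels of 87.6, 87.9 and 102 CPM and mutant levels of 78.4, 52.0, 50.6 and 57.8. In each of these the mutants lay wholly below the wild-type animals, by a wide gap in Prc1 and a narrow one in Cit.

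The piRNA pathway silences transposons in germ cells and piRNAs of pachytene also act on mRNAs. Of 30 of its genes 23 lay below 0 (median -0.26), with 7 lower and 1 higher without overlap, and the mean of the group lay 0.22 to 0.34 below wild type in the 4 mutants. Mael, maelstrom, had 752, 749 and 766 CPM in the wild-type animals and 603, 662, 693 and 559.9 in the mutants, and Ranbp9 had 458, 384 and 391 CPM in wild type and 366, 360.3, 254 and 272 in mutants. Tdrd6, a scaffold of the chromatoid body, had wild-type levels of 1623, 1294 and 1363 CPM and mutant levels of 1218, 1327, 921 and 871, so mutants 12 and 69 stood within or near the wild-type range. In the fit on mutants 93 and 94, 9 of 30 piRNA genes and 19 of 66 M-phase genes fell, none of the former and 2 of the latter rose.

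Early meiosis was close to the median of all genes. Markers of early meiotic spermatocytes had a median of 0.02 over 26 genes (3 lower and 1 higher), genes of the synaptonemal complex and chromosome axis 0.05 over 33 (5 lower and 1 higher), and recombination and crossover genes -0.06 over 38 (0 lower and 5 higher). Within these, Terb1, which tethers telomeres to the nuclear envelope, had 53.2, 79.2 and 54.5 CPM in the wild-type animals and 31.6, 28.2, 34.4 and 42.4 in the mutants. Syce1l of the central element family had 27.8, 23.8 and 24.9 CPM in wild type and 9.02, 12.6, 13.8 and 12.5 in mutants, and Sycp3 of the axis had wild-type levels of 306, 330.3 and 318 CPM and mutant levels of 226, 169.8, 254 and 292. Brca2, which loads recombinases on broken DNA, had 224, 242 and 223 CPM in the wild-type animals and 299.8, 298, 322 and 279 in the mutants, the reverse direction. Per animal, the axis genes lay 0.24 and 0.21 below wild type in mutants 12 and 69 and 0.03 and 0.00 above it in 93 and 94.

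XY body and DNA damage response genes had a median of 0.01 over 41 genes, with 2 lower and 1 higher. Mdc1 (ENSMUSG00000061607.15, chromosome 17, 35841515 to 35859670), which spreads phosphorylated H2AX over the sex chromosomes, had 556, 462 and 447 CPM in wild type and 300.5, 331, 360.0 and 371 in mutants. The mutants lay wholly below, by 0.52 on the log2 scale with a standard error of 0.12, and the adjusted p was 0.189. Brca1, which brings ATR to unsynapsed axes, had wild-type levels of 46.5, 43.5 and 49.3 CPM and mutant levels of 65.0, 57.0, 52.3 and 58.1 and lay above wild type in each mutant by a small margin (adjusted p = 0.384). Scml2, a germline Polycomb protein, had 44.7, 45.0 and 45.4 CPM in the wild-type animals and 39.6, 31.2, 50.5 and 83.7 in the mutants. The genotypes overlapped.

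HP1 proteins and histone methylation enzymes had a median of 0.00 over 55 genes, with 5 lower and 6 higher. The HP1 genes Cbx1, Cbx3 and Cbx5, readers of H3K9 methylation, had log2 fold changes of 0.14 (standard error 0.18), -0.15 (0.26) and -0.11 (0.16) with overlapping animals. The elongation factor subunit genes Eef1g and Eef1d lay at -0.04 (0.13) and 0.10 (0.16). Replication-dependent histones, whose near-identical copies share reads, had a median of 0.35 over 47 genes with 5 higher and 0 lower. That median fell to 0.07 without wild-type 121, whose histones lay 0.73 below the wild-type mean. Hist1h1a, a linker histone of dividing germ cells, had 303, 365 and 408 CPM in wild type and 548, 458, 502 and 528 in mutants. Histone variants had 0.17 over 15 genes (1 higher and 1 lower), and their median changed sign without wild-type 121.

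X-linked genes stood apart from autosomal genes. Of 389 kept on the X chromosome, 328 had a positive log2 fold change, the median was 0.37, and the 11490 autosomal genes had a median of 0.02, with the 19 autosomes between -0.03 and 0.06. On X, 67 genes (17.2%) were higher without overlap and 1, Rpgr, was lower (0.257%). On autosomes 914 (7.95%) were higher and 1028 (8.95%) lower. The difference in medians held at each level. X-linked medians were 0.39 under 10 CPM, 0.37 at 10 to 100 CPM and 0.31 at 100 CPM or more. Autosomal medians were 0.22, 0.02 and -0.11. The share higher without overlap did not differ under 10 CPM, at 7.53% of 146 X-linked and 7.4% of 2499 autosomal genes. Of these, 0 X-linked and 120 autosomal genes were lower. At 10 to 100 CPM 23.3% of X-linked genes were higher and 1 gene lower, beside 8.42% higher and 8.36% lower on autosomes. At 100 CPM or more 3 X-linked genes (18.8%) were higher and 0 lower, beside 7.04% and 16.1% on autosomes. All 16 X-linked genes at 100 CPM or more lay above 0. In the fit on mutants 93 and 94, 90 X-linked genes rose and 4 fell. These values hold for the genes kept. A further 297 X-linked and 5346 autosomal genes reached the count minimum in all wild-type but not in all mutant libraries. With filterByExpr, a looser filter of edgeR, the median was 0.17 over 783 X-linked genes and -0.08 over 19081 autosomal genes.

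X-linked genes took 0.913, 0.956 and 0.923% of the counts kept in wild type and 1.01, 1.03, 1.23 and 1.35% in mutants 12, 69, 93 and 94. All 4 mutants were thus above wild type, the 2 with the fewest genes by the least. The 6 X-linked genes given next were picked after their values were seen, from those of small p but not as the 6 of smallest p. Smarca1 (ENSMUSG00000031099.16, chromosome X, 47809368 to 47892974), an ISWI chromatin remodeler, had wild-type levels of 28.9, 27.7 and 34.4 CPM and mutant levels of 62.8, 68.5, 48.6 and 58.1 (adjusted p = 0.137). Pja1, a ubiquitin ligase, had 70.9, 77.8 and 87.1 CPM in the wild-type animals and 116, 142, 122 and 127 in the mutants, and the kinase gene Nrk had 26.0, 30.2 and 29.2 CPM in wild type and 50.9, 47.4, 46.5 and 48.5 in mutants. Hmgb3, a DNA-bending chromatin protein, had wild-type levels of 56.6, 59.6 and 59.7 CPM and mutant levels of 83.6, 77.9, 87.0 and 102. Rps4x, a ribosomal protein, had 75.7, 84.9 and 81.0 CPM in the wild-type animals and 108, 126, 107 and 130.4 in the mutants, and Ogt, the transferase that adds GlcNAc to proteins, had 27.2, 31.4 and 33.5 CPM in wild type and 40.8, 48.0, 66.7 and 55.6 in mutants. In these 6 the mutants lay wholly above wild type.

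Many somatic cells express X-linked genes that pachytene spermatocytes silence, and markers of somatic cells were also higher here. The 346 X-linked genes that stand in none of the gene groups had a median of 0.37, with 55 higher and 1 lower without overlap. The Sertoli cell, Leydig cell, myoid, macrophage and vessel groups described next had medians between 0.36 and 0.71, and their part in the X-linked result was not tested. On the Y chromosome 23 genes were kept, with a median of 0.30 that turned to -0.15 in the fit on mutants 93 and 94.

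**Figure D4:**
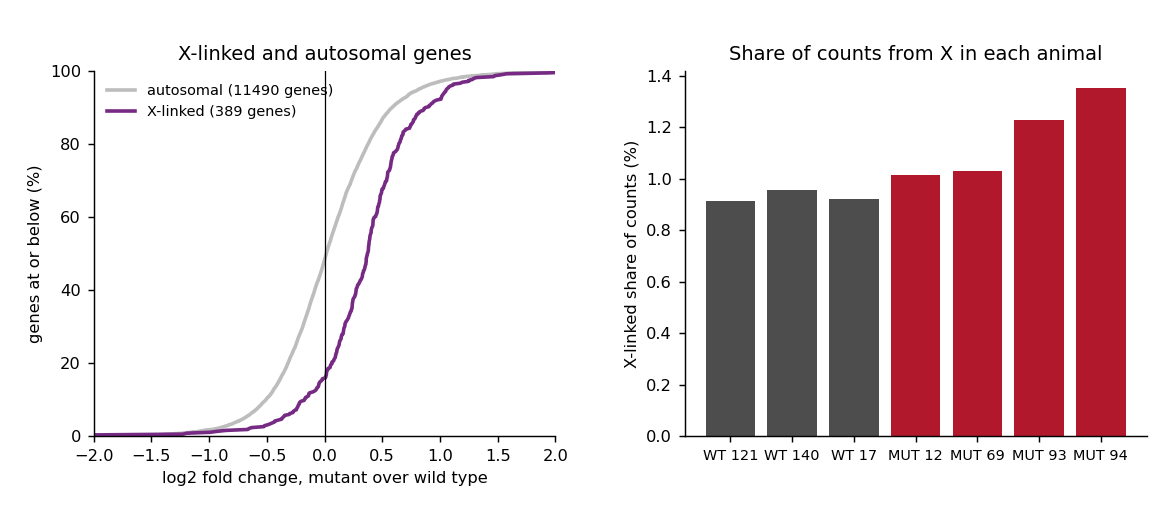
Left, cumulative share of X-linked (purple) and autosomal (grey) genes by log2 fold change, mutant over wild type. Right, share of the counts kept that came from X-linked genes in each animal; the X-linked curve lies to the right throughout the middle range, and the 4 mutants stand between 1.01 and 1.35% against 0.913 to 0.956% in wild type.

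Genes of somatic cells lay mostly above 0. Of 25 Sertoli cell markers 23 did (median 0.36), with 7 higher and 0 lower without overlap. In each group from here to the vessel markers, 4 to 7 members reached the count minimum in all wild-type but not in all mutant libraries. With the looser filter filterByExpr the medians of these groups lay between 0.20 (cholesterol and steroid synthesis) and 0.57 (vessels). The Sertoli cell nurses germ cells and responds to androgen. Shbg, the androgen-binding protein, had wild-type levels of 15.2, 18.9 and 13.4 CPM and mutant levels of 32.4, 52.5, 30.1 and 29.6. Rhox5, an X-linked androgen target, had 15.0, 19.2 and 17.0 CPM in the wild-type animals and 24.8, 53.9, 44.5 and 43.2 in the mutants, and the cathepsin gene Ctsl had 362, 404 and 426 CPM in wild type and 528, 572, 679.9 and 716 in mutants. The intermediate filament gene Vim had wild-type levels of 87.6, 110.4 and 99.2 CPM and mutant levels of 156, 145, 146 and 132. Each mutant exceeded each wild-type animal in all 4. Genes of Sertoli cell junctions and other androgen targets had a median of 0.42 over 30, with 10 higher and 0 lower, among them F11r, a junctional adhesion molecule, at 36.6, 45.8 and 37.4 CPM in the wild-type animals and 73.0, 60.3, 68.5 and 74.7 in the mutants. The tubulin gene Tubb3 belongs to both this list and the tubulins, at 52.0, 51.5 and 67.0 CPM in wild type and 74.5, 111, 90.5 and 90.5 in mutants.

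Collagens, laminins and other matrix genes had 16 of 36 members higher (none lower), the largest share of the 46 gene groups, and a median of 0.51. Col6a2 (ENSMUSG00000020241.13, chromosome 10, 76595762 to 76623630) had wild-type levels of 73.2, 59.9 and 64.8 CPM and mutant levels of 147, 106, 128 and 109 and Col6a1, which forms the same microfibrils, had 91.8, 83.9 and 97.1 CPM in the wild-type animals and 118, 148, 160.1 and 168 in the mutants. Sparc, a matrix glycoprotein, had 475, 504 and 554 CPM in wild type and 679.9, 731, 722 and 732 in mutants, and the fibrillar collagen gene Col5a1 had wild-type levels of 30.2, 29.5 and 25.6 CPM and mutant levels of 51.0, 73.4, 53.2 and 55.3. All 4 were higher in every mutant, and the mutants were close together in Sparc. At 100 CPM or more, 9 of 11 matrix genes were higher without overlap and their median was 0.53. Per animal the group mean lay 0.09, 0.43, 0.60 and 0.67 above the wild-type mean in mutants 12, 69, 93 and 94. Myoid and stromal markers had 0.49 over 14 genes with 4 higher, among them Col1a1 at 243, 191 and 173 CPM in the wild-type animals and 263, 344, 322 and 293 in the mutants and Col3a1 at 179.9, 174 and 143 CPM in wild type and 209, 184, 262 and 299.8 in mutants.

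Lysosome and phagocytosis genes, used by Sertoli cells and macrophages to clear dying germ cells and residual bodies, had a median of 0.37 over 53, with 13 higher and 0 lower. Mfge8, which bridges phagocytes to exposed phosphatidylserine, had wild-type levels of 36.1, 45.5 and 45.9 CPM and mutant levels of 61.0, 91.4, 84.4 and 77.6. The thioesterase gene Ppt1 had 141, 170.3 and 152 CPM in the wild-type animals and 221, 203, 203 and 232 in the mutants, and Scarb2, a lysosomal membrane receptor, had 35.1, 40.4 and 43.6 CPM in wild type and 55.0, 82.1, 57.4 and 68.5 in mutants. No mutant entered the wild-type range in these genes. The group mean, which weights scarce genes equally, was 0.13 below wild type in mutant 12 and 0.11, 0.45 and 0.44 above it in 69, 93 and 94.

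Leydig cells make testosterone from cholesterol. Their 15 markers had a median of 0.40 (3 higher and 0 lower without overlap) and the 32 genes of cholesterol and steroid synthesis 0.29 (4 higher and 1 lower). The latter median was 0.18 without wild-type 140, 0.16 without mutant 94 and 0.09 in mutants 12 and 69 alone. Fdps, whose enzyme makes farnesyl diphosphate, had wild-type levels of 47.1, 46.9 and 53.4 CPM and mutant levels of 72.6, 79.2, 65.1 and 74.5. The adhesion gene Vcam1 had 49.6, 64.5 and 53.6 CPM in the wild-type animals and 70.4, 112, 74.2 and 89.0 in the mutants. Both were higher in every mutant, yet the mean over the Leydig markers was 0.10 below wild type in mutant 69 and 0.27, 0.55 and 0.60 above it in 12, 93 and 94. In the fit on mutants 93 and 94, 8 of 15 Leydig markers and 10 of 32 cholesterol genes rose, and none and 1 fell.

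Macrophage markers had a median of 0.57 over 14 genes, 3 higher and 1 lower. The median was 0.60 for the 8 under 10 CPM, where all genes had 0.23. For the 6 at 10 to 100 CPM it was 0.57, where all genes had 0.03. The group mean lay 0.17 below wild type in mutant 12 and 0.36, 0.53 and 0.81 above it in 69, 93 and 94. Csf1r, the receptor for macrophage growth factor, had 15.5, 19.2 and 18.3 CPM in wild type and 27.7, 28.3, 29.1 and 22.9 in mutants and Mrc1, the mannose receptor, had wild-type levels of 59.3, 66.0 and 76.1 CPM and mutant levels of 126, 93.0, 93.0 and 80.5. Cd74, the invariant chain of class II presentation, had 1.49, 2.11 and 2.94 CPM in the wild-type animals and 7.21, 3.96, 4.50 and 18.3 in the mutants, at low counts. Aif1, a macrophage marker expressed also in germ cells, went the other way, at 13.7, 9.09 and 12.6 CPM in wild type and 1.97, 3.16, 4.34 and 8.31 in mutants. Vessel and blood markers had 0.71 over 13 genes, all above 0, but only 2 without overlap. Their median was 0.68 for the 6 under 10 CPM and 0.71 for the 6 at 10 to 100 CPM. The hemoglobin gene Hbb-bs, whose reads can be shared with its paralog, had wild-type levels of 74.4, 52.7 and 131 CPM and mutant levels of 334, 197, 145 and 97.6. Mutant 94 lay within the wild-type range, and the gene varied widely within both genotypes. Of the vessel gene Esam few reads were present, at 1.15, 2.29 and 1.08 CPM in the wild-type animals and 2.32, 5.33, 4.40 and 3.78 in the mutants.

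**Figure D5:**
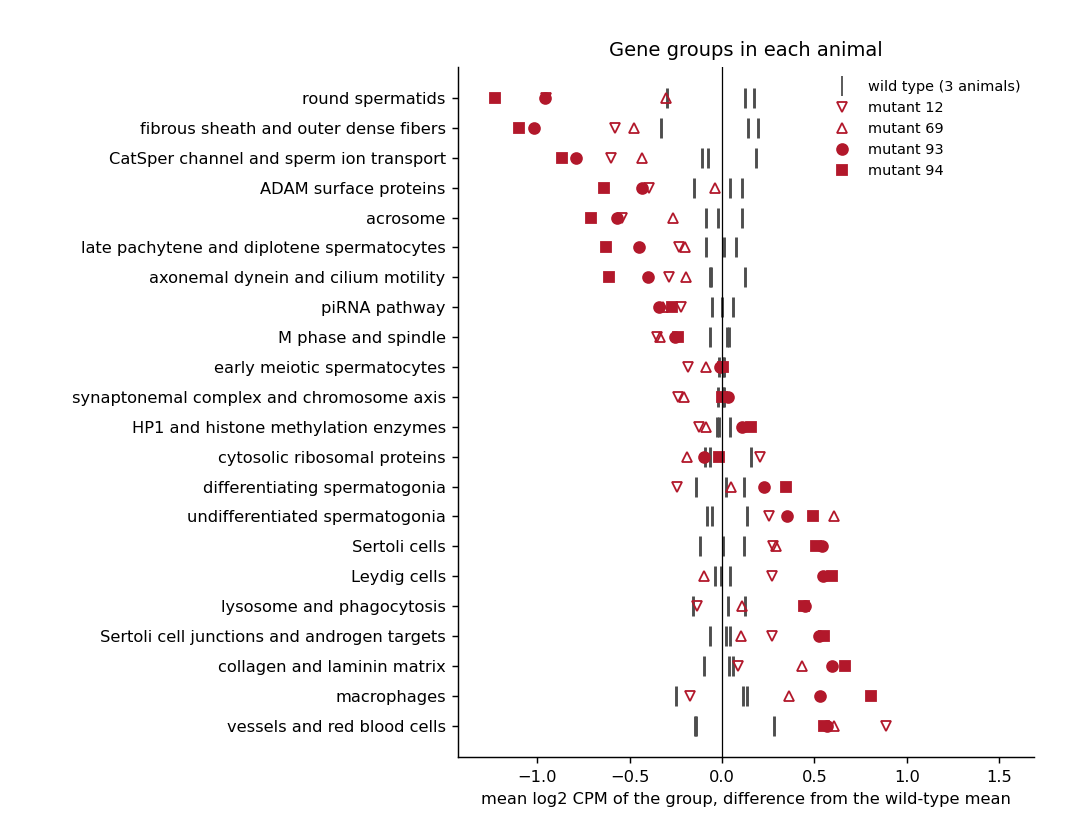
Mean log2 CPM of each of 22 gene groups per animal, as the difference from the wild-type mean. Grey bars are the 3 wild-type animals and red symbols the 4 mutants, open for animals 12 and 69; M-phase and piRNA groups lie at like values in all 4 mutants, and mutant 94 lies lowest in the 7 groups of late germ cells.

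Spermatogonia also lay above 0. Of 11 markers of undifferentiated cells 8 did (median 0.38), with 4 higher and 0 lower without overlap. The group mean was 0.25 to 0.61 above wild type in the 4 mutants. Of 24 annotated markers 13 were not kept, 4 of which reached the count minimum in all wild-type but not in all mutant libraries. With the looser filter filterByExpr the median was 0.33 over 18 markers. In the main fit it was 1.21 for the 4 kept under 10 CPM, where all genes had 0.23. For the 6 at 10 to 100 CPM it was 0.33, where all genes had 0.03. Gfra1, the GDNF receptor of stem cells, had 0.959, 1.24 and 1.13 CPM in wild type and 5.75, 10.2, 1.03 and 2.82 in mutants, so mutant 93 overlapped wild type. Differentiating spermatogonia had 0.18 over 18 genes (1 higher, Tex101, and 1 lower), and the median was 0.07 without mutant 94, 0.33 without mutant 12 and -0.06 in mutants 12 and 69 alone. In retinoic acid metabolism the median was 0.16 over 16 genes (1 higher and 2 lower), with medians from 0.06 without mutant 93 to 0.26 without wild-type 17 and -0.13 in mutants 12 and 69 alone. The one higher gene, Cyp26b1, whose enzyme degrades retinoic acid in the peritubular and Sertoli compartment, had wild-type levels of 73.0, 73.1 and 70.5 CPM and mutant levels of 119, 112, 104 and 119, without overlap and with narrow groups.

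General machinery of the cell differed little as groups. Cytosolic ribosomal proteins had a median of 0.03 over 78 genes (6 higher and 3 lower), mitochondrial ribosomal proteins 0.01 over 75 (6 and 2), translation initiation and elongation factors 0.00 over 53 (3 and 3) and splicing factors 0.01 over 58 (3 and 1). The nuclear-encoded respiratory chain had -0.01 over 79 (4 and 3), the mitochondrial genome -0.06 over 8 (0 and 0, with medians from -0.25 to 0.18 on leaving out 1 animal), and the proteasome and ubiquitin 0.05 over 46 (5 and 3). Single members went either way: Rpsa had 259, 280.5 and 289.7 CPM in the wild-type animals and 404, 331, 375 and 406 in the mutants and Rps27 had 158, 131 and 169.8 CPM in wild type and 119, 82.2, 104 and 108 in mutants. Psme4, the proteasome activator that degrades histones in germ cells, had wild-type levels of 937, 819 and 879 CPM and mutant levels of 703, 671, 641 and 614. The polyubiquitin gene Ubb had 1603, 1453 and 1723 CPM in the wild-type animals and 1352, 1153, 978 and 942 in the mutants. In both of these every mutant was lower.

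Chaperone, decay and cytoskeleton genes had medians near 0 or below it. Heat shock proteins and the chaperonin had -0.13 over 35 genes (2 higher and 8 lower, -0.05 without mutant 69), mRNA decay and ribosome quality control -0.05 over 57 (3 and 6), ER chaperones and the unfolded protein response 0.02 over 36 (4 and 3), and tubulins and kinesins -0.17 over 49 (7 and 12, -0.11 without wild-type 121). Hspa4l, a chaperone of spermatocytes and spermatids, had 1302, 1229 and 1280.0 CPM in wild type and 992, 1029, 1060.0 and 963 in mutants. Tubb5, the common beta tubulin, had wild-type levels of 132, 130.5 and 146 CPM and mutant levels of 173, 183, 184 and 205, without overlap in the other direction. DNA replication and G1/S genes had 0.10 over 47 (3 and 3).

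p53 targets and apoptosis genes had a median of 0.23 over 33 genes (4 higher and 2 lower), which was 0.14 without mutant 93, 0.08 without mutant 94 and 0.07 in mutants 12 and 69 alone. The group mean lay 0.22 and 0.02 below wild type in mutants 12 and 69 and 0.26 and 0.34 above it in 93 and 94. Aen, a nuclease induced by p53, had 27.6, 27.9 and 28.1 CPM in the wild-type animals and 70.3, 29.6, 44.2 and 51.7 in the mutants, with wild-type animals nearly equal and mutant 69 close to them. Of 46 interferon and double-stranded RNA sensor genes only 17 were kept and 16 more reached the minimum in all wild-type but not in all mutant libraries. The median of the 17 was 0.34, and 0.22 without mutant 12 and 0.19 without mutant 94. It was 0.72 for the 7 under 10 CPM, where all genes had 0.23, and 0.23 for the 10 at 10 to 100 CPM, where all genes had 0.03. Irf9, a factor of interferon signaling, was the one member higher without overlap, at 4.22, 4.50 and 3.77 CPM in wild type and 6.35, 9.21, 10.96 and 10.4 in mutants.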

How the data were processed

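Strand-specific, rRNA-depleted libraries of whole testis lysate were sequenced by the authors, who removed remaining rRNA reads with Bowtie2, trimmed reads with Trimmomatic and quantified transcripts with RSEM (version 1.3.3 in the submitters' processing notes) on GRCm38 Ensembl transcripts extended with assembled testis transcripts. The deposited tables give, per transcript and library, the expected count and the TPM (length-scaled abundance over all rows, spike-ins among them) that the authors' RSEM run computed. Of 182829 rows, 133445 Ensembl transcripts were matched to GENCODE M21 and their expected counts were summed to 53337 genes and rounded. 404 unmatched rows, 48888 assembled transcripts and 92 spike-ins were left out, as were the 7 pull-down libraries. Genes with at least 10 counts in each of the 7 libraries were tested with the quasi-likelihood test of edgeR 4.0.16 (TMM factors, robust, R 4.3.3) with Benjamini-Hochberg adjustment and a threshold of 0.05. The study tested input with EBSeq, which was not used here. CPM values are normalised with TMM factors, and standard errors are of the log2 fold change. DESeq2 1.42.0 and limma 3.58.1 served as alternatives. The fit was tested on simulated data.

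Named genes are Adad2, the 12 protein-coding genes of smallest p per direction with a mean log2 CPM of at least 1, up to 4 members of smallest p per gene list, and 8 genes the study discusses (Mdc1, Brca1, Cbx1, Cbx3, Cbx5, Scml2, Eef1g and Eef1d). The part of the data described, the 46 gene lists and the setting without mutants 12 and 69 were chosen with earlier results of these data known. Each library is 1 animal. The edgeR p-values set the genotype difference against the spread between these animals, estimated with information shared across genes. The permutation p ranks the difference among 35 splits of the animals.

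Values of 2 named genes are not reported here.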

Additional observations from a re-analysis of the deposited data

Results flagged for a closer look

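Among the 4 mutants, the most extreme animal was set against the others for 168 values. These were the levels of named genes, the means of gene groups and measures of the libraries. In 7 of them its gap to the next animal exceeded, as a share of the whole range, the limit of Dixon's test for 4 samples. Chance passes that limit in about 1 of 20 values, and 7 of 168 does not exceed this share. Mutant 69 was the highest mutant in Golga2 (312.1 CPM), Kif17 (15.39 CPM) and Shbg (52.45 CPM) and lowest in the mean of mitochondrial ribosomal protein genes (-0.1796 from the wild-type mean, log2). Mutant 12 was the lowest mutant in Prnd (31.2 CPM) and the highest in Pdha2 (187.0 CPM) and in the mean of vessel and red blood cell markers (0.8878, log2). All 7 fell in the 2 mutants with the fewest genes detected, 3 in mutant 12 and 4 in mutant 69. When assembled transcripts without a gene annotation were tested beside the genes, 1 of them was called.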

How the results depend on the processing

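Against 1 gene called higher and 1 lower in edgeR, DESeq2 called 175 and 202, limma voom with weights per library 740 and 1128, edgeR without a filter 6 and 22, the fit with assembled transcripts 2 and 1, and limma on log2(TPM + 0.1) or log2(TPM + 1) 0 and 0 (247 and 1990, and 239 and 2036, at an unadjusted p under 0.05). An adjusted p under 0.01 left 1 and 0. Mutants 93 and 94 alone gave 890 and 1510, and mutants 12 and 69 alone, added after the data were seen, 2 and 2. Leaving out 1 animal gave 0 to 1 in each direction, and genes without overlap numbered 1150 to 1750 higher and 1168 to 1779 lower, with 1750 and 1655 without mutant 12 and 1737 and 1779 without mutant 69. Both called genes were lost on the TPM scale. The causes were not tested. On log2(TPM + 0.1) the median of all genes was -0.236, beside 0.02 in the main fit.

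Some medians changed sign: histone variants (-0.03367 to 0.2502 on leaving out 1 animal, negative without wild-type 121, and -0.00247 in mutants 93 and 94), differentiating spermatogonia (-0.06189) and retinoic acid metabolism (-0.1323), both in mutants 12 and 69. The median of the mitochondrial genome ran from -0.25 (without wild-type 17) to 0.18 (without wild-type 121). Medians near 0, those of early meiotic, axis, recombination, XY body, HP1, ribosomal protein (both), translation factor, respiratory chain, ER, proteasome and splicing genes, also crossed 0 in at least 1 setting. So did genes that no fit of the 7 animals by edgeR called. The log2 fold change of Cbx1 was -0.04 and -0.03876 on the TPM scales with pseudocounts 0.1 and 1 and -0.03969 in mutants 12 and 69. Cbx3 ran from -0.2676 to 0.06855 and Cbx5 from -0.1851 to 0.01577 on leaving out 1 animal (both positive without mutant 69), and Cbx5 was 0.02664 in mutants 93 and 94. Scml2 ran from -0.1561 (without mutant 94) to 0.3633, and was -0.1601 and -0.131 on the TPM scales and -0.336 in mutants 12 and 69. The log2 fold change of Eef1g ran from -0.1272 to 0.01806 (positive without wild-type 17, and 0.0134 without mutant 93) and was 0.009326 in mutants 12 and 69. The log2 fold change of Eef1d ran from -0.01191 (without mutant 12) to 0.2212 and was -0.01457 and -0.01435 on the TPM scales. Of 111 genes named, 74 passed with DESeq2 and 92 with voom that had not passed. Most were named for a small p in these same data, so high shares were built in and lend no support. Over all 11912 genes DESeq2 called 175 higher and 202 lower, and voom 740 and 1128. No paired analysis was possible because the wild-type and mutant input animals share no animal number. The low number of genes detected in mutants 12 and 69 limits what can be said of scarce genes.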

Other observations

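Antisense genes and lincRNAs lay lower than protein-coding genes as classes. The 180 antisense genes kept had a median log2 fold change of -0.21, with 3 higher and 22 lower without overlap between genotypes, and the 287 lincRNAs had -0.12, with 10 higher and 25 lower. The 179 processed pseudogenes had -0.15 with 10 higher and 25 lower, beside 0.03 for 10723 protein-coding genes with 938 higher and 911 lower. Other noncoding classes were mixed. The 108 processed transcripts had 0.05, with 2 higher (1.85%) and 13 lower (12.0%), and 21 sense-intronic genes 0.01 (0 and 0). The 32 bidirectional-promoter noncoding genes had -0.10, with 1 higher (3.12%) and 4 lower (12.5%). Pseudogenes can share reads with their parents, so their counts are uncertain.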
